A study of Mus musculus with 24 samples.

Results

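Ts65Dn mice were compared with disomic (2N) mice over both maternal diets at once, in 1 additive model with a term for genotype and a term for diet. All 24 of 24 libraries of the count table entered it, 14 labelled Ts65Dn and 10 labelled 2N. Each library held RNA of about 500 laser-captured neurons from 20 µm sections of the septal region (medial septum, vertical diagonal band) of 1 male mouse aged about 6 months. The neurons had been recognised by immunostaining for choline acetyltransferase, which marks basal forebrain cholinergic neurons. Ts65Dn is a mouse model of Down syndrome that carries an additional, freely segregating copy of segments of chromosomes 16 and 17 and is bred from Ts65Dn females and C57Bl/6J Eicher x C3H/HeSnJ F1 males. The control-diet groups (6 2N and 6 Ts65Dn) came from dams fed 1.1 g/kg choline chloride. The supplemented groups (4 2N and 8 Ts65Dn) came from dams fed 5.0 g/kg, and after postnatal day 21 all offspring ate the control diet. The labels give no litter, so p-values measure the spread between these animals and leave shared dams out of account.

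Cholinergic neurons of the basal forebrain send acetylcholine to cortex and hippocampus, depend on nerve growth factor taken up at their terminals, and are lost in Alzheimer's disease and in Down syndrome. Ts65Dn mice lose the cholinergic phenotype of these cells during adult life. An extra gene copy raises the RNA of many, though not all, genes of the triplicated segments, and other genes of the genome may then change as well. A level is given below as CPM, the count scaled to library size with TMM factors. A difference is the log2 fold change of Ts65Dn against 2N adjusted for diet, with its standard error (SE). A gene was called, and is said to have risen or fallen, at a Benjamini-Hochberg adjusted p under 0.05 in edgeR's quasi-likelihood F test over 19967 tested genes. The SE of a gene was derived from that test, as the absolute log2 fold change over the square root of its F statistic.

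Library totals ran from 4688300 to 13443486 counts, and the genotype difference in totals gave an exact permutation p of 0.0884 within diets (two-sided, adjusted p = 0.245 over 5 library measures). The other 4 measures, namely genes detected, the shares of mitochondrial rRNA and mRNA, and Chat, had exact permutation p-values of 0.0981 to 0.448 (adjusted 0.245 to 0.448). In contrast, 7 Ts65Dn libraries stood apart from the other 17: control-diet replicate 3 and supplemented replicates 1, 3, 4, 6, 7 and 8. Small nucleolar RNAs and the related scaRNAs took 0.433% to 0.830% of their counts, against 0.0172% to 0.196% in the others, and mitochondrial rRNA took 29.0% to 43.3% against 13.5% to 25.8%. Their total counts ran from 4688300 to 11255892, against 7626896 to 13443486 in the others. No 2N library was among them, and 5 control-diet and 2 supplemented Ts65Dn libraries remain without them, so many of the results below are also given without these 7 libraries. Because they were recognised by their small RNA share, leaving them out acts on the small RNA results by construction. The columns of supplemented Ts65Dn replicates 2 and 5, which were not among the 7, stand between those of the supplemented 2N animals in the deposited table. Although all animals are labelled male, 4 libraries (supplemented 2N replicate 2 and control-diet Ts65Dn replicates 1, 2 and 6) held 80 to 237 counts of Xist, the RNA of the inactive X chromosome, against at most 25 in the other 20.

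In the additive model 158 genes rose in Ts65Dn (0.791% of the tested genes) and 42 fell (0.21%). The 158 held 145 distinct count profiles, since some identifiers had identical counts in every library, and the 42 held 42. At an unadjusted p under 0.05 there were 1919 genes (9.61%), 5.56% on the positive and 4.05% on the negative side, where 5% of the tested genes would be 998. Most of the 158 were not annotated as protein-coding: 39 were small nucleolar RNAs, 3 were scaRNAs, 55 were identifiers that GENCODE M21 does not hold, and 41 were protein-coding genes (0.284% of 14424). Of the genes that fell, 28 were protein-coding (0.194%). Without the 7 libraries, 7 genes were called higher and 2 lower of 23047 tested (0.0391%), and 4 of these 9 were also called with all libraries. The 9 were chosen for naming after their values were seen: Tatdn1, Lars2, Mir6236, Atp2b4, Son, Rps3 and ENSMUSG00000119584 were higher, and Gm43118 and Gm32036 were lower. No other gene was called in that fit, also where no value from it is given below. The fit has fewer Ts65Dn libraries and another set of tested genes, so a lost call in it cannot be assigned to the 7 libraries alone. Without control-diet Ts65Dn replicate 3 alone, the counts were 57 and 18.

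Small RNAs made up a large part of the genes called higher. Small nucleolar RNAs are cut from introns of host genes and guide the methylation (box C/D) or pseudouridylation (box H/ACA) of ribosomal and spliceosomal RNA. Bc1 is a neuronal RNA made by RNA polymerase III that is carried into dendrites and represses translation there. Sequences of members named below are printed 5′ to 3′ as the transcripts of GENCODE M21 (build GRCm38) give them, to show the boxes that define each class. Capitals mark the longest run of A in Bc1 (23 bases), TGATGA (box C, within the first 20 bases) and CTGA (box D, within the last 20 bases) in the Snord RNAs, and ACA within the last 8 bases in Snora21.
Bc1: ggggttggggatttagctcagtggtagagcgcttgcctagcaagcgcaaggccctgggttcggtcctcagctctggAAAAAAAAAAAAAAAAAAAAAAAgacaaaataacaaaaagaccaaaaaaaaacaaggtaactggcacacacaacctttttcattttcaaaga
Snord15a: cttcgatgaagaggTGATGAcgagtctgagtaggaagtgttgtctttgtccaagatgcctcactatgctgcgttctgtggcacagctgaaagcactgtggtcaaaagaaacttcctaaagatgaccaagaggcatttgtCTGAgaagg
Snord15b: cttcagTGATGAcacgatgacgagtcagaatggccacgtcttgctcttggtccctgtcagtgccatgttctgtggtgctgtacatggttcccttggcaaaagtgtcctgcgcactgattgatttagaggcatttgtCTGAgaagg
Snord17: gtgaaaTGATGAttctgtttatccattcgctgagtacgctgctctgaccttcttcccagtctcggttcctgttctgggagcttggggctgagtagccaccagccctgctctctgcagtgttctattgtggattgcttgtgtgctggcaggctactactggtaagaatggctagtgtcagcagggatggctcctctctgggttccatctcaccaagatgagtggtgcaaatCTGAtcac
Snora21: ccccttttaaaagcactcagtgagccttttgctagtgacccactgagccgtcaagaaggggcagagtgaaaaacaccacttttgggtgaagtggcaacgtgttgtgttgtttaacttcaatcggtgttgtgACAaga
Bc1 lies at chr7:144914470-144914637 (+) and Snord17 at chr2:144265979-144266216 (-). Snord15a and Snord15b lie at chr7:99482785-99482932 (-) and chr7:99479563-99479707 (-), and Snora21 at chr11:97781639-97781775 (-). Both boxes, read on the transcribed strand, were present in 20.2% of the 1558 annotated snoRNA and scaRNA transcripts, in 69.4% of the 98 named Snord and in 0% of the 42 named Snora. Of the 42 called snoRNAs and scaRNAs, 20 (47.6%) held both boxes, and of the 181 tested, 39.2% did. The ACA end was found in 95.2% of the named Snora, in 44.8% of the tested and in 38.1% of the called transcripts.

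Bc1 had 8.31, 18.4 and 38.5 CPM as the lowest, median and highest value in 2N and 15.2, 1465 and 15440 in Ts65Dn. The 7 snoRNA-rich libraries held 2833 to 15440 CPM and the other 7 Ts65Dn libraries 15.2 to 97.4, so that the latter overlapped the 2N animals. The log2 fold change was 7.30 ± 0.99 (SE, edgeR quasi-likelihood, adjusted p = 2.24e-05), and without the 7 libraries it was 1.13 (adjusted p = 0.228). Leaving out control-diet Ts65Dn replicate 3 alone gave 3.83 and ended the call. Of the 119 distinct 50-base words of Bc1, 37 also occur in transcripts of Lrrc17 or Tatdn1, so reads could be shared with these genes.

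Snord55 had 0, 0.0902 and 0.538 CPM in 2N and 0, 13.3 and 105.8 in Ts65Dn, where 11 of 14 libraries lay above every 2N library. It rose by 6.95 ± 1.06 (edgeR, adjusted p = 7.10e-05), and the value without the 7 libraries was 2.94 (adjusted p = 0.689). Snord15a had 0.411, 2.25 and 4.95 CPM in 2N and 0, 85.6 and 330.3 in Ts65Dn, with 8 of 14 above the 2N range, and rose by 5.00 ± 0.83 (edgeR, adjusted p = 0.000331). Snord17, a longer box C/D RNA with higher levels in 2N, ran from 6.47 through 14.0 to 47.5 CPM there and from 11.9 through 98.5 to 231 CPM in Ts65Dn. It rose by 2.33 ± 0.40 (edgeR, adjusted p = 0.000535), and 10 Ts65Dn libraries exceeded the 2N range. Snora21, of the box H/ACA class, rose by 4.53 ± 0.94 (edgeR, adjusted p = 0.00547), and Snord15b by 7.22 ± 1.31 (edgeR, adjusted p = 0.000932). Without control-diet Ts65Dn replicate 3, Snora21 stood at 3.43, Snord15b at 4.04 and Snord21 at 3.53, and none of these 3 was called. Rpph1, the RNA of RNase P, which trims tRNA precursors, had 16.3, 51.3 and 206 CPM in 2N and 37.9, 207 and 3855 in Ts65Dn. It rose by 3.26 ± 0.61 (edgeR, adjusted p = 0.00149), stood at 1.60 without that same library, no longer called, and shares 68.1% of its 50-base words with Ccnb1ip1.

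As a class, 168 of 170 tested snoRNAs (of 1065 annotated) had a positive difference and 39 were called higher, a share of 22.94% beside 0.791% over all tested genes. Their median was 3.66, also with the 9 snoRNAs that had no count in any 2N library set to the fold against 3 counts over the 2N group, beside -0.01 over all tested genes. All 49 named Snord and all 29 named Snora were positive, with 12 and 11 called and medians of 3.63 and 5.09 (4.93 with 2 Snora at that bound). The filter on low counts used all 24 libraries, so a member could pass it through the 7 snoRNA-rich libraries alone. The positive shares, calls and medians of these classes are therefore favoured by the filter. Without the 7 libraries, Snord17 stood at 1.19 (adjusted p = 0.267), 111 snoRNAs were tested, 92 were positive with a median of 1.04, and 0 were called. None of the host genes was called. Of the 42 called snoRNAs and scaRNAs, 41 lie inside a gene on the same strand, and of 34 distinct hosts tested 20 were positive, 13 negative, with a median of 0.08. Rps3, which hosts Snord15a and Snord15b, stood at 0.11, Rpl5 at 0.15 and Gas5 at 0.28, while Rpl13 stood at -1.14 (edgeR, adjusted p = 0.0884).

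**Figure D1:**
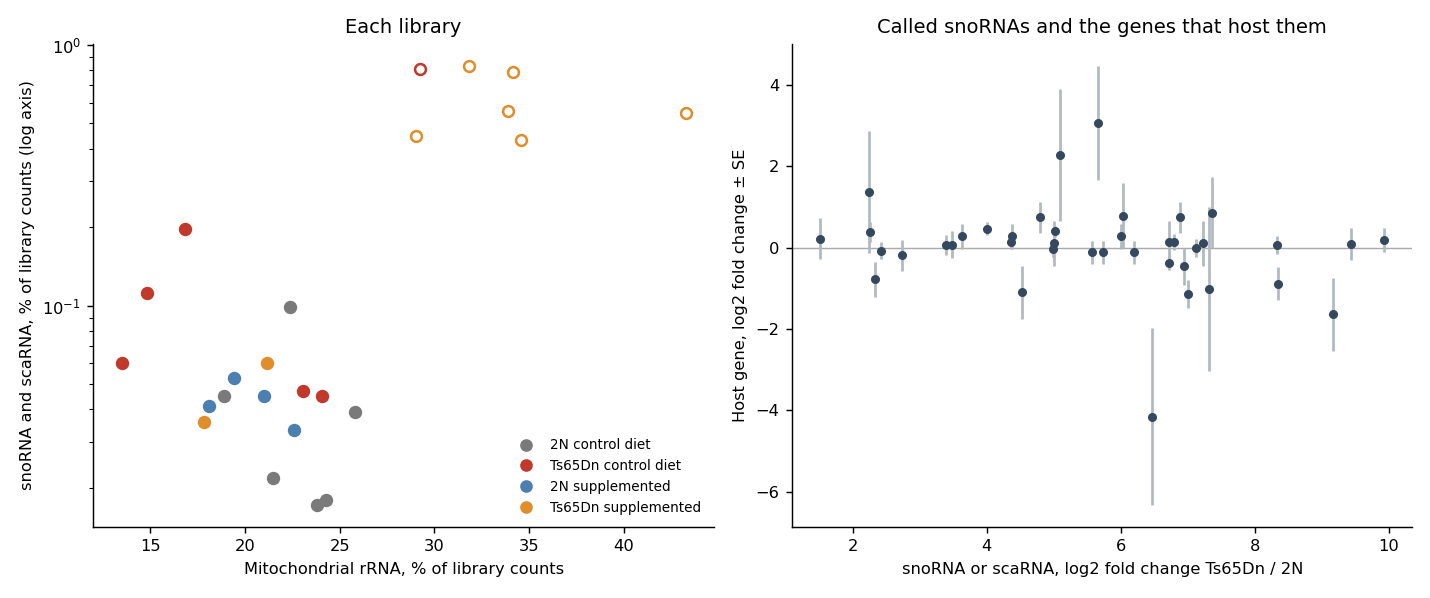
Left, share of library counts in snoRNAs and scaRNAs (log axis) against the share in mitochondrial rRNA, 1 symbol per library; the open symbols, 7 Ts65Dn libraries, lie at 0.433% to 0.830% and 29.0% to 43.3%, apart from the other 17. Right, log2 fold change of the host gene (± SE) against that of the snoRNA or scaRNA it holds, for called members with a tested host; the hosts scatter about a median of 0.08.

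The triplicated segments were examined next. Their limits were set here from what is known of Ts65Dn, as the protein-coding genes of chromosome 16 from Mrpl39 to the end and of chromosome 17 from the start to Pde10a. On chromosome 16, 77 of 135 genes were tested, 63 were positive and 5 were called higher (6.49% beside 0.284% of all coding genes), with a median of 0.43. On chromosome 17, 33 of 44 were tested, 25 were positive and 1 was called (3.03%), with a median of 0.64. Over the 14313 coding genes outside both segments, 47.6% were positive and the median was -0.035, while 3 copies against 2 would give 0.58. The rest of chromosome 16 had a median of -0.051 with 0 of 364 genes called and the rest of chromosome 17 one of 0.089 with 1 gene called higher and 2 lower of 661 (0.45%).

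Along chromosome 16 the window medians changed sign at the assigned start. In the 20 tested coding genes just before it, 5 were positive (median -0.415), and in the 20 just after it, 16 were (median 0.316). The next windows of 20, 20 and 17 genes toward the end of the chromosome had 16, 17 and 14 positive members, with medians of 0.412, 0.512 and 0.429. On chromosome 17 the 20 genes of the segment nearest its inner edge, Pde10a included, had 13 positive members and a median of 0.693. The 13 genes nearer the start of the chromosome had 12 and 0.476, and the 20 beyond Pde10a had 10 and -0.012. The share of positive genes also varied with the level. At a mean of 7 log2 CPM or more, all 11 genes of chromosome 16 and both genes of chromosome 17 were positive (medians 0.491 and 0.480, against 44.8% positive among other coding genes). From 5 to 7 log2 CPM, 12 of 13 and 6 of 6 were positive, from 3 to 5, 21 of 25 and 5 of 9, and under 3, 19 of 28 and 12 of 16. Across these levels the share was larger at each higher level on chromosome 16, and on chromosome 17 it was smallest from 3 to 5.

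**Figure D2:**
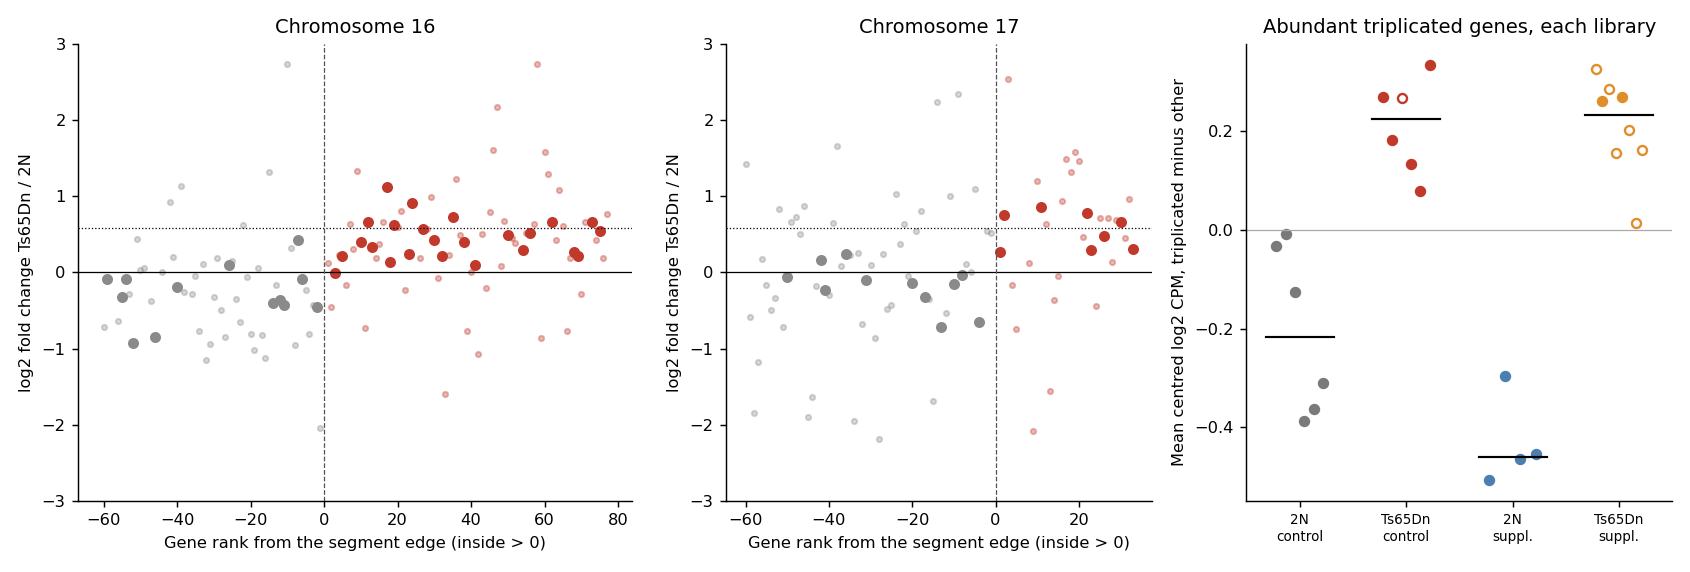
Left and middle, log2 fold change (Ts65Dn against 2N) of tested coding genes by their rank from the edge of the triplicated segment of chromosomes 16 and 17, inside to the right of 0; large symbols mark a mean of at least 5 log2 CPM, the dotted line marks 0.58, and 12 genes lie outside the axis. Right, the dosage index of the abundant triplicated genes by library, with group medians as lines and the 7 snoRNA-rich libraries as open symbols; the Ts65Dn libraries (0.015 to 0.335) do not overlap the 2N libraries (-0.507 to -0.009).

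A dosage index was taken per library over the 32 triplicated genes with a mean of at least 5 log2 CPM, as their mean centred log2 CPM minus that of equally abundant coding genes elsewhere. It ran from -0.507 to -0.009 in the 10 2N libraries and from 0.015 to 0.335 in the 14 Ts65Dn libraries, so the labelled genotypes did not overlap. Its means were -0.205 ± 0.170 (SD, n = 6) and 0.212 ± 0.096 (SD, n = 6) in 2N and Ts65Dn on the control diet, and -0.431 ± 0.092 (SD, n = 4) and 0.210 ± 0.099 (SD, n = 8) on the supplemented diet. The difference adjusted for diet was 0.522 ± 0.055 (SE), a 1.44-fold level, and it was 0.501 without the 7 libraries, which themselves held 0.015 to 0.327. Supplemented Ts65Dn replicates 2 and 5 had 0.262 and 0.270, above every 2N library. No p is given, as the threshold on level was set with the values known. Over all tested genes of the segments, without that threshold, the indices differed by 0.335 ± 0.127 on chromosome 16 and 0.319 ± 0.193 on chromosome 17, while the mean of all tested genes moved by -0.153. On log2(TPM + 1), where the mean of all tested genes moved by -0.343, these 2 indices turned to -0.051 and -0.045, and relative to that mean they were 0.292 and 0.297.

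Of the triplicated genes, Son, a nuclear speckle protein that supports splicing and lies on chromosome 16, had the smallest p. It had 357.6, 494 and 658 CPM as lowest, median and highest value in 2N and 630, 826.6 and 1115 in Ts65Dn. Of the 14 Ts65Dn libraries, 13 lay above every 2N library. Son rose by 0.73 ± 0.13 (edgeR quasi-likelihood, adjusted p = 0.000736), by 0.72 in control-diet and 0.75 in supplemented animals. It was called in all 24 fits that left out 1 library (0.68 to 0.80) and without the 7 libraries (0.69, adjusted p = 0.0376). Within animals whose identifier starts with 15, 16 and 17 it stood at 0.65, 0.63 and 0.86.

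Tiam1, which activates the GTPase Rac1 and shapes dendritic spines, ran from 44.2 through 95.7 to 145.8 CPM in 2N and from 82.6 through 156.9 to 535.8 CPM in Ts65Dn, with 8 Ts65Dn libraries above the 2N range. It rose by 1.12 ± 0.24 (edgeR, adjusted p = 0.0101), and 24 of 24 fits without 1 library called it. Ets2, a transcription factor, rose by 1.58 ± 0.38 (edgeR, adjusted p = 0.0263), from a 2N median of 20.5 to a Ts65Dn median of 52.3 CPM. Arid1b, a subunit of the BAF chromatin remodelling complex, was the called gene of chromosome 17. It had 122.2 to 253.8 CPM in 2N and 194.7 to 388 in Ts65Dn, so that the groups overlapped, and rose by 0.66 ± 0.17 (edgeR, adjusted p = 0.0365). Paxbp1 and Brwd1, also on chromosome 16 and named after their values were seen, rose by 0.92 and 0.67. Ets2, Arid1b, Paxbp1 and Brwd1 were called in 19, 14, 17 and 12 of the 24 fits without 1 library. Without the 7 libraries none of these 5 was called, with values of 1.04 for Tiam1, 1.20 for Ets2, 0.60 for Arid1b, 0.54 for Paxbp1 and 0.39 for Brwd1.

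Genes of the segments that are often discussed in Down syndrome were not called. App, the amyloid precursor, had 2214, 3179 and 4718 CPM in 2N and 2943, 3608 and 5020 in Ts65Dn, a difference of 0.21 ± 0.12 (edgeR, adjusted p = 0.599). The ranges overlapped almost fully. Dyrk1a, a kinase, stood at 0.52 ± 0.21 (edgeR, adjusted p = 0.311), Itsn1 of endocytosis at 0.40 ± 0.13 (adjusted p = 0.179) and Synj1, a lipid phosphatase of synaptic vesicle recycling, at 0.24 ± 0.16 (adjusted p = 0.728). Sod1, superoxide dismutase, stood at 0.13 ± 0.32, the calcineurin regulator Rcan1 at -0.21 ± 0.42 and the potassium channel Kcnj6 at 0.64 ± 0.47. The 95% intervals (normal, from the SE) of App and Synj1 ended at 0.44 and 0.54, below the 0.58 that 3 copies against 2 would give, while those of the other 5 included 0.58.

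**Figure D3:**
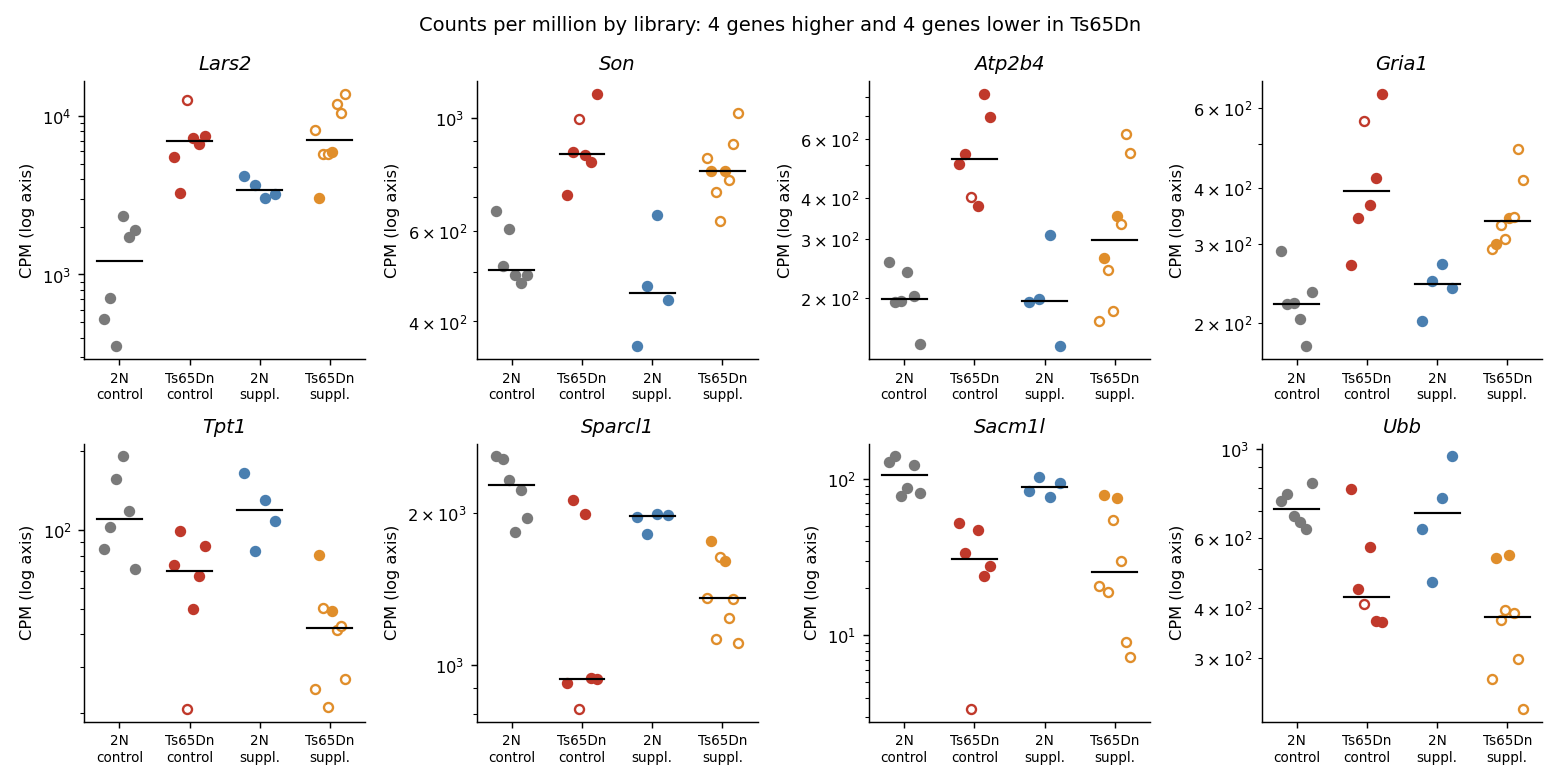
CPM per library on a log scale for leading protein-coding genes, by genotype and diet. Each symbol is 1 library, black lines are group medians and open symbols are the 7 snoRNA-rich Ts65Dn libraries; Son was above every 2N library in 13 of 14 Ts65Dn libraries and Sacm1l below every 2N library in 13 of 14.

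Outside the segments, Lars2, the leucyl-tRNA synthetase of mitochondria, had the smallest p of the coding genes. Its lowest, median and highest values were 351.6, 2123 and 4200 CPM in 2N and 3023, 6967 and 13850 CPM in Ts65Dn. The ranges overlapped, with 12 of 14 Ts65Dn libraries above all 2N libraries. Lars2 rose by 1.87 ± 0.26 (edgeR, adjusted p = 2.88e-05), 2.51 in control-diet and 1.20 in supplemented animals, and by 1.71 without the 7 libraries (adjusted p = 0.000174). It stood at 0.52, 1.87 and 2.43 within identifiers starting with 15, 16 and 17. Counts came from total RNA libraries, and whether these reads came from the mRNA of Lars2 was not tested.

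Several genes that handle calcium in dendrites or build the postsynaptic density rose. Of 37 tested members of this list, 28 were positive, 7 were called higher (18.92% beside 0.791%) and 19 had an unadjusted p under 0.05 in this direction, with a median of 0.49. With a score of glial markers in the model the median was 0.22 and 0 were called. Atp2b4, a calcium pump of the plasma membrane, ran from 143.8 through 197.6 to 309.2 CPM in 2N and from 171.4 through 390.4 to 817.1 CPM in Ts65Dn. It rose by 1.07 ± 0.20 (edgeR, adjusted p = 0.00187), and in 10 Ts65Dn libraries it exceeded the 2N range. Agap2, an activator of phosphoinositide 3-kinase in the nucleus and at synapses, rose by 0.97 ± 0.20 (edgeR, adjusted p = 0.0064). Other called members, named after their values were seen, were the calcium channels Cacna1e (1.09) and Cacna1g (0.85), the kinase subunit Camk2a (1.40) and the scaffold Shank1 (0.65). Camk2a lost its call without control-diet 2N replicate 2, 5 or 6 or without control-diet Ts65Dn replicate 3 (1.15 to 1.33). Cacna1g lost it without control-diet 2N replicate 2 or 6 or that Ts65Dn library (0.79 to 0.82), and Shank1 was called in 18 of 24 such fits.

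Among the 17 other libraries, 29 of the 37 members were positive with a median of 0.32, and Atp2b4 remained called (1.20, adjusted p = 0.000535), while Agap2 stood at 0.70 (adjusted p = 0.187). Among the receptors themselves, Gria1, an AMPA receptor subunit, had 177.8, 228.1 and 289.4 CPM in 2N and 268.8, 343.6 and 645.9 in Ts65Dn. It rose by 0.76 ± 0.16 (edgeR, adjusted p = 0.00636), above every 2N library in 13 of 14 Ts65Dn libraries, and stood at 0.71 without the 7 (adjusted p = 0.165). It was the 1 called gene of 25 tested glutamate receptor genes (4.0% beside 0.791% over all tested genes), of which 16 were positive (median 0.21).

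Immediate early genes, which neurons transcribe within minutes of activity, were positive in 16 of 21 tested members, with a median of 0.91. There was 1 call (4.76% beside 0.791% called higher over all tested genes). Arc, which controls AMPA receptor removal, rose by 1.34 ± 0.34 (edgeR, adjusted p = 0.0365), from 7.59, 32.3 and 54.7 CPM in 2N to 18.5, 50.8 and 231.7 in Ts65Dn. The ranges overlapped in 7 of 14 Ts65Dn libraries, and the call held in 11 of the 24 fits that left out 1 library. With the 7 libraries left out, the median of the list was 0.39 and 0 members were called. Summed over the 8 markers of glutamatergic neurons, levels ran from 13.8 to 195 CPM in 2N and from 11.2 to 722 in Ts65Dn, and their part in these differences was not tested. Rreb1, a zinc finger transcription factor outside any of the lists, rose by 1.50 ± 0.29 (edgeR, adjusted p = 0.00187), with medians of 57.5 and 143.6 CPM. Without the 7 libraries it stood at 1.18 (edgeR, adjusted p = 0.154).

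Several nuclear genes of the respiratory chain fell. Of 80 tested members, 65 were negative, 4 were called lower (5.0% beside 0.21% over all tested genes) and 20 had an unadjusted p under 0.05 in this direction, with a median of -0.52. The astrocyte markers had a median of -0.44 in the same model, and with the glial score added the median of the respiratory chain list was -0.21 and 0 were called. Ndufa6, a subunit of complex I, had 18.9, 54.3 and 72.5 CPM in 2N and 3.91, 14.9 and 40.7 in Ts65Dn, where 7 libraries lay below every 2N library. It fell by 1.68 ± 0.38 on the log2 scale (edgeR, adjusted p = 0.0158). Cycs, the cytochrome c that carries electrons to complex IV, had 35.1, 62.1 and 111.5 CPM in 2N and 0, 11.7 and 45.1 in Ts65Dn, and 10 libraries lay below the 2N range. It fell by 1.85 ± 0.45 (edgeR, adjusted p = 0.029), but 25.9% of its 50-base words also occur in other transcripts, many of them pseudogenes, and the call was lost without 2N replicates 1 or 2 on the control diet or 1 or 4 on the supplemented diet. Uqcrc1 of complex III fell by 0.81 ± 0.21 and Ndufa10 of complex I, named after its values were seen, by 0.97 ± 0.26 (edgeR, adjusted p = 0.0411 and 0.0485). Without the 7 libraries the median was -0.35 and 0 were called, and Ndufa6 stood at -1.54 (adjusted p = 0.177). Lrpprc, which stabilises mitochondrial mRNAs, fell by 1.11 ± 0.26 (edgeR, adjusted p = 0.0179), from 62.0, 88.2 and 175 to 21.6, 44.4 and 79.4 CPM. It stood at -1.05 without supplemented 2N replicate 3 and at -1.02 without control-diet 2N replicate 5, not called in either case. Without the 7 libraries Lrpprc stood at -1.18 (edgeR, adjusted p = 0.141). The 11 tested mRNAs encoded in mitochondria themselves gave 0 calls in edgeR (1 higher and 1 lower at an unadjusted p under 0.05) and no common direction. Their median was -0.88 in control-diet and 0.85 in supplemented animals, -0.59 without the 7 libraries and 0.38 with a score of glial markers in the model.

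Genes of protein quality control were also mostly negative. The ubiquitin precursor Ubb had 465.8, 709.5 and 958.4 CPM in 2N and 223.4, 391.4 and 794.5 in Ts65Dn and fell by 0.71 ± 0.16 (edgeR, adjusted p = 0.0137). It lost its call without supplemented 2N replicate 4 (-0.61) and shares 48.1% of its 50-base words with other transcripts. Ubxn4, which recruits the ATPase p97 to the degradation of endoplasmic reticulum proteins, fell by 0.96 ± 0.22 (edgeR, adjusted p = 0.0176), below every 2N library in 12 of 14 Ts65Dn libraries. Its value without the 7 libraries was -0.99 (edgeR, adjusted p = 0.177). Of 30 chaperone genes, 27 were negative with a median of -0.36, and 1 was called (3.33% beside 0.21% called lower over all tested genes). This gene, Hsp90aa1, the inducible HSP90, fell by 0.63 ± 0.16 (edgeR, adjusted p = 0.0347). Its values were 706.4, 940.9 and 1295 CPM in 2N and 269.4, 523.2 and 946.3 in Ts65Dn, and 13 of 24 fits without 1 library called it. It shares 47.5% of its 50-base words with other transcripts. In the fit without the 7 libraries, Ubb stood at -0.47 and Hsp90aa1 at -0.40 (adjusted p = 0.228 for both). Of 31 proteasome genes 26 were negative with a median of -0.43, 0 were called and 2 had an unadjusted p under 0.05, both in the negative direction. Without the 7 libraries the medians of the chaperones and the proteasome were -0.24 and -0.39, with 0 calls in both.

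The other coding genes with the smallest p among those that fell covered several roles. Tpt1, a growth-related protein bound to tubulin and translation factors, fell by 1.18 ± 0.25 (edgeR, adjusted p = 0.00781), from 70.9, 113.5 and 191.3 to 20.7, 49.6 and 99.3 CPM, and shares 18.7% of its 50-base words with other transcripts. Sacm1l, a phosphoinositide phosphatase of the endoplasmic reticulum and Golgi, had 77.1, 91.1 and 140 CPM in 2N and 3.38, 29.0 and 79.5 in Ts65Dn. It lay below every 2N library in 13 of 14 Ts65Dn libraries and fell by 1.53 ± 0.34 (edgeR, adjusted p = 0.0125). Ppm1l, a phosphatase of stress signalling, fell by 1.05 ± 0.24 (edgeR, adjusted p = 0.0146), and stood at -1.0, not called, without supplemented 2N replicate 4. The mitochondrial tRNA gene mt-Tq fell by 1.77 ± 0.38 (edgeR, adjusted p = 0.0083) but stood at 0.51 within identifiers starting with 15. Tpt1, Sacm1l and mt-Tq were called in all 24 fits that left out 1 library, and without the 7 libraries they stood at -0.76, -1.07 and -1.14, with adjusted p-values of 0.228, 0.166 and 0.177.

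Structural and release genes of the axon were mostly negative. Of 19 neurofilament and microtubule genes 17 were negative, where 49.2% of all tested genes were positive. At an unadjusted p under 0.05, 8 were lower, beside 4.05% of all tested genes. In this list 1 member was called (5.26% beside 0.21% called lower over all tested genes). Nefm, the medium neurofilament subunit, had 1092, 1608 and 2046 CPM in 2N and 146.9, 835.5 and 1500 in Ts65Dn and fell by 0.89 ± 0.23 (edgeR, adjusted p = 0.0452), a call held in 10 of the 24 fits without 1 library. Its value without the 7 libraries was -0.85 (adjusted p = 0.056). Of 26 synaptic vesicle and release genes, 19 were negative and 2 were called in opposite directions (7.69% beside 1.0% of all tested genes in either direction). Snap25, a SNARE protein of vesicle fusion, fell by 0.66 ± 0.17 (edgeR, adjusted p = 0.0396), with 738.7, 944.7 and 1360 CPM in 2N and 339.9, 550.9 and 1034 in Ts65Dn. The 7 snoRNA-rich libraries had a median of 449.4 CPM and the other 7 Ts65Dn libraries one of 874.3, and without the 7 the difference was -0.35 (adjusted p = 0.345). Unc13a, which primes vesicles, rose by 0.54 ± 0.14 (edgeR, adjusted p = 0.0396). Cytosolic ribosomal protein genes, 56 of 82 negative with a median of -0.35, gave 0 calls in edgeR (3 higher and 9 lower at an unadjusted p under 0.05), and their median was -0.10 without the 7 libraries. Mitochondrial ribosomal protein genes (52 of 77 negative, median -0.23) and genes of endosomes, lysosomes and autophagy (32 of 42, median -0.19) gave 0 calls as well, with 3 and 4 members lower at an unadjusted p under 0.05.

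**Figure D4:**
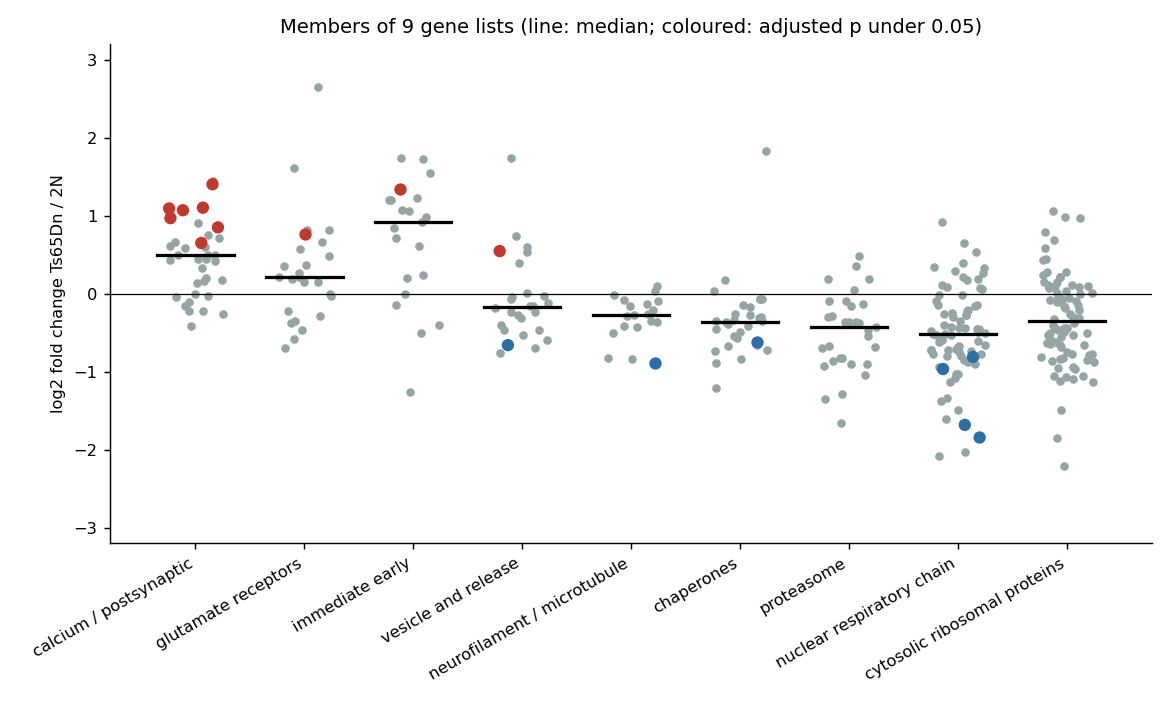
Log2 fold change (Ts65Dn against 2N) of every tested member of 9 gene lists, 1 point per gene, with the list's median as a line and called genes marked; 2 members lie outside the axis of ±3.2. The calcium and postsynaptic list has a median of 0.49 and the nuclear respiratory chain one of -0.52.

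The markers of the captured cells were low. Chat had 0.564, 14.5 and 54.1 CPM in 2N and 0, 7.17 and 53.7 in Ts65Dn, ranges that overlapped almost wholly, and a difference of -0.69 ± 0.71 (edgeR, adjusted p = 0.873). In Ts65Dn, Chat lay under 1 CPM in control-diet replicates 3, 5 and 6 and supplemented replicate 7. In 2N this held for control-diet replicate 5 and supplemented replicate 3. Without these libraries 17 genes were called higher and 1 lower. The high-affinity choline transporter Slc5a7 stood at -1.37 ± 0.73 (edgeR, adjusted p = 0.587), the vesicular transporter Slc18a3 at -0.98 ± 0.96 (adjusted p = 0.860) and the neurotrophin receptor Ngfr at -1.27 ± 0.38 (adjusted p = 0.0976). Over 8 cholinergic markers, 6 were negative with a median of -0.78, 0 were called in edgeR (1 lower at an unadjusted p under 0.05), and none was at 0 in 12 or more libraries. In captured material, fewer cells of a type and less RNA per cell cannot be told apart. Of 9 genes of acetylcholine synthesis, transport and breakdown, 7 were negative, and of 11 transcription factors of these neurons 9 were positive, with 0 calls in either list and, at an unadjusted p under 0.05, 0 members of the first and 4 of the second (3 higher, 1 lower). Genes of choline, phospholipid and one-carbon metabolism, 14 of 30 positive with a median of -0.12, also gave 0 calls and none had an unadjusted p under 0.05.

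RNA of other cell types was abundant. The 12 astrocyte markers summed to 3950, 4750 and 5290 CPM (lowest, median, highest) in 2N and 2220, 3150 and 4430 in Ts65Dn, while the 8 cholinergic markers summed to 92.0, 166 and 471 CPM and 1.71, 109 and 312 CPM. Among the astrocyte markers 10 of 12 were negative with a median of -0.44, and Sparcl1, a matricellular protein of astrocytes that promotes synapses, fell by 0.65 ± 0.14 (edgeR, adjusted p = 0.0109). It ran from 1819 through 1988 to 2589 CPM in 2N and from 818.9 through 1298 to 2119 CPM in Ts65Dn, with 12 libraries below the 2N range. Without the 7 libraries Sparcl1 stood at -0.54 (edgeR, adjusted p = 0.177). The 12 oligodendrocyte markers summed to 2930 to 4240 CPM in 2N and 650 to 4050 in Ts65Dn, and the 10 general neuronal markers to 5120 to 6810 and 2690 to 6600. In the 7 snoRNA-rich libraries the astrocyte sum was 2220 to 3440 CPM (median 2660) and the neuronal sum 2690 to 4300 (median 3260). With a score of glial markers added to the model, the median of all tested genes moved from -0.014 to 0.123, 11 genes were called higher and 0 lower, and Son (0.76, adjusted p = 0.0299) and Lars2 (1.50, adjusted p = 0.00602) were still called. In that fit 0 members of the functional and marker lists were called, and the median of the immediate early genes was 0.49. The score was averaged from the astrocyte and oligodendrocyte markers themselves, so the fit cannot judge those lists. Penk, a neuropeptide gene of striatal projection neurons, fell by 1.08 ± 0.27 (edgeR, adjusted p = 0.0372). It was the 1 call among 10 striatal markers, beside 0.21% called lower over all tested genes. Of these markers 8 were positive, with a median of 0.22, so Penk went against the direction of its list. Without the 7 libraries 4 of the 10 were positive with a median of -0.28, and Penk was not called. The part of these cell types in the genes that fell was not tested.

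The 2 diets were then read side by side, since the additive model takes the genotype difference as equal on both. Tested within a diet, 58 genes were higher and 9 lower on the control diet (0.336%), and 33 were higher and 3 lower on the supplemented diet (0.18%). Of the 200 genes of the additive model, 53 were called on the control diet, 31 on the supplemented diet and 135 on neither alone. Their sign was positive on both diets for 157 and negative on both for 42, a property that the choice of these genes favours. Over all tested genes 29.0% were positive on both diets, and 67 of the 110 triplicated coding genes (60.9%) were. Of the 69 called coding genes, 53 had the larger difference on the control diet, for example Atp2b4 (1.43 against 0.68) and Lars2 (2.51 against 1.20). The share over all coding genes was not taken. The 7 snoRNA-rich libraries lie mostly on the supplemented diet, and without them 5 control-diet and 2 supplemented Ts65Dn libraries remain. Their part in this count was not tested. None of the 200 had an interaction adjusted p under 0.05 in edgeR, and 18 had an unadjusted p under 0.05.

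Mir6236 was the 1 gene with a called interaction of 19967 (0.00501%), where 1683 had an unadjusted p under 0.05. The mature sequence of miR-6236 (RefSeq, GRCm38.p6, chr9:110281353-110281371, +) is printed to show what the locus encodes, with its seed, bases 2 to 8, in capitals.
miR-6236: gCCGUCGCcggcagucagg
Single reads of 50 bases before trimming were counted over the locus, so its values are not levels of this mature miRNA. On the control diet it had 163 to 604 CPM in 2N and 702 to 2790 in Ts65Dn, without overlap, and on the supplemented diet 1128 to 2405 in 2N and 253 to 1799 in Ts65Dn, with overlap. The differences were 2.34 and -0.72, the interaction was -3.06 (edgeR, adjusted p = 0.000709), and the additive difference was 0.76 ± 0.35 (adjusted p = 0.448). Without the 7 libraries the additive difference was 1.78 (adjusted p = 0.00044), in a fit that holds 5 control-diet and 2 supplemented Ts65Dn libraries and so leans on the control diet by construction.

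**Figure D5:**
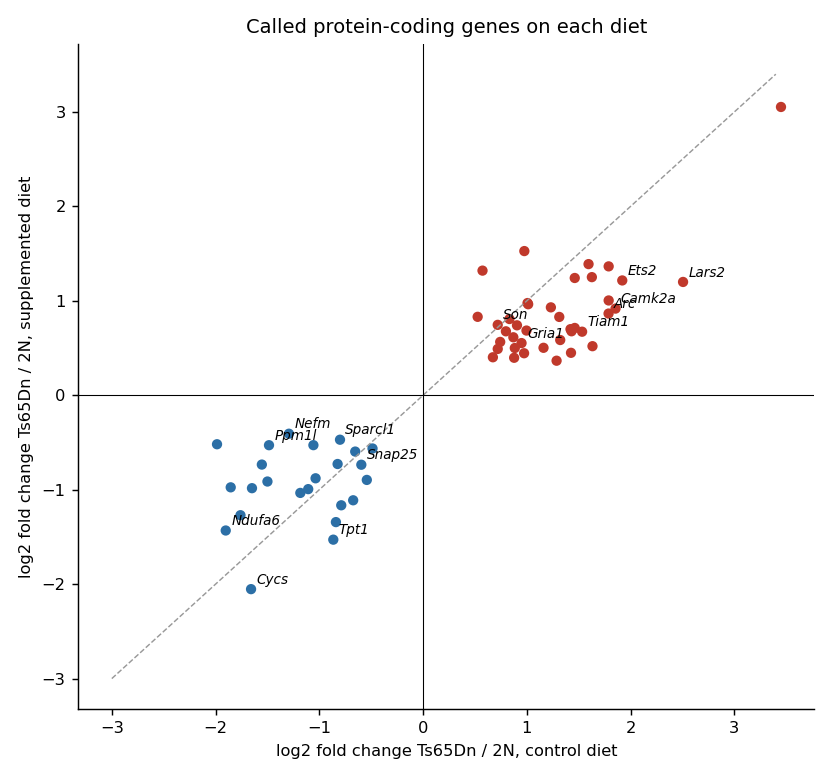
Log2 fold change (Ts65Dn against 2N) on the supplemented diet (y axis) against that on the control diet (x axis), for the 63 of 69 called protein-coding genes within 5 of 0 on both; red points rose and blue points fell in the additive model, and the dashed line marks equal differences. The larger difference was on the control diet for 53 of the 69, a count without the share over all coding genes beside it.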

How the data were processed

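RNA of laser-captured neurons was made into stranded total RNA libraries with a low-input kit and sequenced, 1 library per animal, per the labels' protocols. Per the submitters' processing notes, reads were trimmed with Trimmomatic 0.39, aligned with STAR and quantified with RSEM. Which versions of STAR and RSEM were used is not stated, and the notes name the builds GRCm39 and mm10 with no role. The deposited table holds RSEM expected counts per gene, not normalized by the authors, and its 24 columns held the same values as the files of single samples. The deposited files of single samples also hold TPM, used as an alternative scale with 1 added before log2. Reads carried no molecular identifiers.

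Before testing, values were rounded to whole numbers. Of 55414 identifiers, 52133 had a symbol in GENCODE M21 (GRCm38), which gave symbols, positions, classes and sequences. The files' own coordinates were not used. Genes passing filterByExpr at a minimum count of 10 in 4 groups (19967) were scaled with TMM and tested by edgeR 4.0.16 quasi-likelihood F tests (R 4.3.3), two-sided, with diet and genotype as terms over all 24 libraries and Benjamini-Hochberg adjustment over all tested genes. The interaction and the within-diet contrasts came from 1 fit of the 4 groups. The common biological coefficient of variation was 1.43. Of the tested genes, 80 shared their counts with another. Genes with a count in fewer than 12 libraries made up 39 of the genes called higher and 17 of those called lower and were passed over, apart from examples in the closing section. Some genes and sequences are not reported here. The scripts were tested on simulated data.

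Groups follow the labels of each sample, although the design text gives 6 animals to every group. Named were up to 12 genes with the smallest p per direction, up to 3 called members of each list (otherwise the 2 with the smallest p) and a fixed set of genes, passing over unnamed gene models and pseudogenes. The comparison, gene lists and rules were chosen with earlier results of these data known, so lists are described by counts and medians without a test of their own. Library measures were compared by exact permutation of genotype within diet (457380 splits). The first digits of the animal identifier (14 to 17), whose meaning the labels do not state, were examined as a possible batch; 14 held 1 animal of each genotype and gave no fit of its own. Alternatives were DESeq2 1.42.0, limma 3.58.1 voom, other filters, thresholds, scalings and covariates, and subsets of libraries. Leaving out the 7 snoRNA-rich libraries, or supplemented Ts65Dn replicates 2 and 5, testing coding genes alone, and the index on TPM relative to all genes were added after seeing the data.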

Additional observations from a re-analysis of the deposited data

Results flagged for a closer look

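A gap test within each group of 4 or more animals (the distance of the highest or lowest library to its neighbour over the group's range) was made for 184 groups, over 37 genes and the library measures. It singled out 15, where chance gives about 1 in 20. Control-diet Ts65Dn replicate 3 accounted for 6 of them. Its snoRNA and scaRNA share was 0.808% (0.0451% to 0.196% in the rest of its group), and its chromosome 17 index was -0.994 (0.134 to 0.721). Bc1 stood at 15400 CPM there (22.8 to 97.4), Snord15b at 3690 CPM (3.76 to 46.0), Rpph1 at 3860 CPM (37.9 to 187) and Sacm1l at 3.38 CPM (24.1 to 52.1).

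Among the 2N libraries, control-diet replicate 4 had a snoRNA share of 0.0985% (0.0172% to 0.0449%), replicate 6 had 150 CPM of Rpph1 (30.9 to 52.5) and replicate 5 had 0.803 CPM of Chat (7.79 to 21.6). In supplemented 2N, replicate 2 had a chromosome 16 index of -0.114 (-0.487 to -0.450), replicate 4 had 220 CPM of Ppm1l (113 to 120) and replicate 1 had 2.72 CPM of Slc5a7 (31.7 to 36.2). In supplemented Ts65Dn, replicate 2 had 11.9 CPM of Snord17 (53.7 to 205), and replicate 7 had 1.70 CPM of Ngfr (25.7 to 84.0) and 0 CPM of Kcnj6 (9.75 to 43.0).

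The genotype difference of Mir6236 was unlike on the 2 diets. It was 2.34 in control-diet and -0.72 in supplemented animals, an interaction of -3.06 (edgeR, adjusted p = 0.000709).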

How the results depend on the processing

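With all libraries 158 genes were called higher and 42 lower. Other tools gave 405 and 122 (DESeq2) or 14 and 23 (limma-voom). No filter on low counts gave 453 and 348, a filter on genotype alone 98 and 14, a threshold of 0.01 gave 74 and 2, one of 0.1 gave 321 and 92, and coding genes alone 52 and 24. A glial score as covariate gave 11 and 0, the mitochondrial rRNA share 55 and 19, the identifier prefix 103 higher, and no diet term 257 higher. Without the 2 libraries with the fewest detected genes (control-diet Ts65Dn 3 and supplemented Ts65Dn 7) there were 50 and 12, without libraries under 1 CPM of Chat 17 and 1, without those with 50 or more Xist counts 18 lower, without the 7 snoRNA-rich libraries 7 and 2, and without supplemented Ts65Dn 2 and 5 294 and 96. Within identifiers starting with 15 there were 32 and 7, within 16 there were 75 and 16, and within 17 there were 179 and 34. Leaving out 1 library gave 57 to 256 higher and 18 to 66 lower. The interaction count of 1 became 314 in DESeq2, 11 without the 2 libraries with the fewest genes, 5 without the 7 and 1 to 12 without 1 library. The cause of these shifts was not tested.

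On log2(TPM + 1) the dosage indices of chromosomes 16 and 17 turned to -0.051 and -0.045, while that of the abundant genes stayed at 0.468, and it ran from 0.500 to 0.547 without 1 library. Of 3852 recomputed values of the 81 called named genes, 2609 kept direction and call, 1237 lost the call and 6 reversed: Snord21 (-0.472) without the 7 libraries, mt-Tq (0.511), Zfp959 (1.491), Tmem184c (0.015) and Rnf103 (0.035) within prefix 15, and Hivep3 (-0.09) within prefix 16. In the 24 fits without 1 library, 26 of the 81 were called in each. No paired analysis was possible because replicate numbers follow accession order and pair no animals. Triplicated genes of chromosomes 16 and 17 had a median SE of 1.15 and 1.07 under 3 log2 CPM, and of 0.17 and 0.16 at 7 log2 CPM or more.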

Other observations

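Genes detected in few libraries hold the largest fitted differences and were left out of the lists above. Npcd had 0 counts in the 10 2N libraries and 1979 over the 14 Ts65Dn libraries, and 8 of the 14 held a count. With 3 counts set for the whole 2N group, the pooled counts scaled to library size give a 616-fold ratio. Epor, chosen after its values were seen, had 124 counts over the 2N libraries, with a count in 4 of them, and 0 over the Ts65Dn libraries. Its pooled ratio by the same rule was 44.2-fold lower. Both ratios leave the spread between animals out of account, so they are not lower limits of the genotype difference.

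Tatdn1 was called higher when the 7 snoRNA-rich libraries were left out (1.10 ± 0.16, SE, edgeR, adjusted p = 0.000118). Rps3, a ribosomal protein gene and the host of Snord15a and Snord15b, was called higher in the same fit (1.29 ± 0.27, adjusted p = 0.0399), while it stood at 0.11 with all libraries.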
